A study of Mus musculus with 12 samples.

Results

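The opening and closing of chromatin during myeloid differentiation was followed in wild-type (WT) mouse cells, at 96 h after estradiol (E2) was withdrawn against 0 h, when E2 was still present. The comparison used 6 of the 12 ATAC-seq libraries of the study, 3 at 96 h and 3 at 0 h, and every accessible region (peak) of the deposited table: 57576 of 60072 peaks had enough reads to be tested. The other 2496 were too sparse, and 5 of them had 0 reads in every library. The remaining 6 libraries came from HMGN1-OE cells at 96 h and 0 h, whose mice carry a human HMGN1 transgene. They entered the filter, the scaling and the estimate of the spread, and served as a second set of cells in which to look up the wild-type peaks. All 4 groups were CD117+ bone marrow progenitors immortalized by a retrovirus encoding HoxB8 fused to the estrogen receptor (ER) and grown with interleukin 3. How many immortalized lines each genotype had is not given in the sources used here, and the labels call the replicates biologically independent, and if they were cultures of a single line, the p-values describe the spread between those cultures only. The cells were labelled as myeloid cells. That label was not checked against marker genes, because no gene annotation of the mm9 build was used here, and peaks are therefore given by position.

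HoxB8 is a homeobox transcription factor that holds myeloid progenitors in a dividing, immature state as long as it is active. In these cells the fusion is active only while E2 is bound, so that its removal releases a synchronized maturation toward cells such as neutrophils and monocytes. ATAC-seq reads this process on DNA: a transposase inserts adapters where nucleosomes leave the double helix exposed, and promoters and enhancers in use appear as peaks of reads. Maturing myeloid cells are known to close regulatory elements of the progenitor program, to open those of granule, migration and host defense genes, and to condense their nuclei.

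Library totals were 21581528 to 27542241 reads at 96 h and 30667608 to 34667133 reads at 0 h. Values are given as scaled RPKM, that is, reads per kilobase of peak relative to the size of the library, after a correction for composition (trimmed mean of M values, TMM). The share of reads in peaks averaged 41.6% ± 7.65 at 96 h and 37.7% ± 2.08 at 0 h (SD, n = 3 each; difference 3.94 percentage points, two-sided exact permutation p = 0.5, where 0.1 is the smallest p that 3 against 3 allows). Replicate 1 at 96 h, with 50.02% of reads in peaks against 39.7% and 35.1%, set this difference, and without it the difference was -0.265 points. After scaling, replicate 1 was the highest of the 3 libraries at 32.5% of peaks and the lowest at 33.1%. The scaling centres each library, so this balance is largely set by it. Pearson r between replicates, across peaks, was 0.956 to 0.964 at 96 h and 0.970 to 0.971 at 0 h, and no pair agreed within counting noise (chi-square per degree of freedom 1.92 to 4.37). At 96 h this chi-square value was 3.53 and 4.37 for the pairs with replicate 1, against 2.02 for replicates 2 and 3.

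Accessibility changed at most of the tested peaks. Of the tested peaks, 19125 (33.2%) were higher and 17703 (30.7%) were lower at 96 h than at 0 h, and 20748 (36.0%) were not called (limma on log2(scaled RPKM + 1), Benjamini-Hochberg adjusted p under 0.05 over all tested peaks). Together 64% of the peaks were called. On the RPKM as deposited, which lack the composition correction, 21363 were higher and 10229 lower, because the median log2 fold change of all peaks moved by 0.21. All 19125 higher calls and 10228 of the lower calls were made on both scales, and no peak was called in opposite directions. Since each library pooled many cells, a higher value cannot tell a wider opening in every cell from an opening in more of the cells.

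The gains were larger than the losses. Peaks called and at least 2-fold higher at 96 h numbered 10598 (18.4% of tested peaks), and those at least 2-fold lower numbered 5835 (10.1%), while limma-voom on the recovered reads gave 13976 and 8816. The median log2 fold change was 1.08 among higher peaks and -0.77 among lower peaks. At the extreme end the order depended on the scaling. A log2 fold change of at least 3 was reached by 116 higher and 134 lower peaks after TMM scaling, and by 246 higher and 95 lower peaks as deposited, and one of at least 4 by 2 higher and 10 lower peaks after TMM scaling and by 6 and 5 as deposited. The 2-fold higher peaks were also narrower, with a median width of 373 bp, against 468 bp for the 2-fold lower peaks and 445 bp for all tested peaks.

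**Figure D1:**
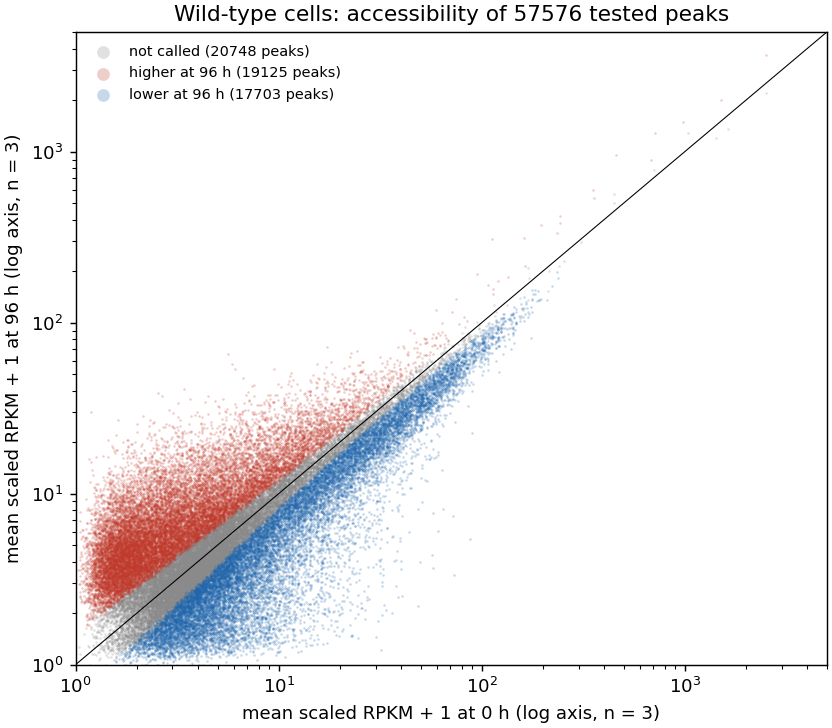
Mean accessibility of each tested peak in wild-type cells at 96 h (vertical axis) and at 0 h (horizontal axis), in scaled RPKM + 1 on log axes, with n = 3 libraries per time. Red points are the 19125 peaks called higher at 96 h, blue points the 17703 called lower and grey points the 20748 not called, and the black line marks equal values.

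Regions that were almost closed in progenitors and open at 96 h were taken as the 12 largest increases among well-covered, non-overlapping peaks, at most 1 per 200 kb. They lay on 8 chromosomes, were 161 to 827 bp wide and had log2 fold changes of 3.64 to 4.66. The largest was at chr19:29535631-29536141 (opening 1), with 27.2, 29.97 and 30.3 scaled RPKM in the 96 h libraries, against 0.333, 0.138 and 0.106 at 0 h (change of 4.66 on the log2 scale, SE 0.16, limma adjusted p = 3.00e-14). In reads, this was 320 to 561 at 96 h against 2 to 5 at 0 h. A second peak lay 826 bp away. At chr5:150475228-150475548 (opening 2) the 96 h libraries held 25.6, 24.1 and 27.6 scaled RPKM and the 0 h libraries 0, 1.10 and 0.761 (log2 fold change 4.11, SE 0.21). The 96 h libraries were close together at both peaks. The 0 h libraries held 0 to 10 reads each and differed in proportion, and every one of them was far below the 96 h libraries.

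Opening 3 and opening 5 were the highest of these peaks at 96 h. At chr14:70454050-70454403 (opening 3) the values were 40.9, 35.6 and 37.3 scaled RPKM at 96 h against 2.02, 0.996 and 1.61 at 0 h (log2 fold change 3.96, SE 0.22). At chr19:3907956-3908167 (opening 5) they were 39.1, 35.4 and 34.3 at 96 h against 1.60, 1.33 and 2.05 at 0 h (log2 fold change 3.81, SE 0.14). Both thus had a small but measurable signal in every progenitor library.

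The other opening peaks differed in how even the 96 h libraries were. The peak at chr7:142930019-142930219 (opening 4) had 20.9, 20.2 and 17.8 scaled RPKM at 96 h against 0.338, 0.175 and 0.810 at 0 h. The peak at chr8:122639996-122640229 (opening 6) had 22.9, 19.7 and 20.7 at 96 h against 0.581, 0.603 and 0.580 at 0 h. Less even was chr14:107479762-107480017 (opening 7), with 10.4, 13.7 and 20.6 at 96 h against 0.266, 0 and 0.212 at 0 h. Replicate 3 was the highest and replicate 1 the lowest of the 96 h libraries at this peak, and even the lowest was far above every 0 h library.

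An isolated site was among them. The peak at chr13:88599157-88599644 (opening 8) lay 368329 bp from the nearest other peak, and it held 22.5, 29.0 and 30.7 scaled RPKM at 96 h against 1.04, 1.30 and 1.11 at 0 h (log2 fold change 3.71, SE 0.14). The remaining 4 opening peaks were at chr18:57899869-57900143, chr8:3665646-3665806, chr3:90472650-90473476 and chr3:84479465-84479918, with means of 14.4 to 24.6 scaled RPKM at 96 h and 0.185 to 1.003 at 0 h. The peak at chr3:90472650-90473476 was the widest opening peak, at 827 bp, and it lay within a run of 7 consecutive 2-fold higher peaks that spanned 43.3 kb. All 12 kept their direction and their call under each of the 16 other ways of processing that were tried. That follows largely from the choice of the largest changes in the same libraries.

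The largest losses of progenitor signal were at wider peaks than most of the largest gains. The 12 largest decreases, taken by the same rule, were 584 to 1402 bp wide on 8 chromosomes, with log2 fold changes of -4.72 to -3.97. Their widths do not describe lost regions in general, since the median was 468 bp for all 2-fold lower peaks. At chr4:82872998-82873768 (closing 1) the 96 h libraries held 0.321, 0.205 and 0.126 scaled RPKM, against 29.6, 34.5 and 29.3 at 0 h (change of -4.72 on the log2 scale, SE 0.15, limma adjusted p = 6.40e-15). That was 2 to 10 reads at 96 h against 672 to 831 reads at 0 h. At chr7:90865629-90866321 (closing 2) the values were 0.429, 1.77 and 1.40 at 96 h against 45.9, 53.8 and 43.7 at 0 h (log2 fold change -4.52, SE 0.18). Closing 2 thus kept 12 to 31 reads per library at 96 h, more than closing 1, and the times were far apart at both.

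Among the 12, the strongest progenitor signals belonged to closing 9 and closing 3. The peak at chr7:79105512-79106140 (closing 9) had 3.54, 4.204 and 5.54 scaled RPKM at 96 h against 93.1, 90.2 and 76.9 at 0 h (log2 fold change -4.03, SE 0.12). The peak at chr5:118944710-118945675 (closing 3) had 1.74, 2.53 and 2.71 at 96 h against 74.3, 76.4 and 65.4 at 0 h (log2 fold change -4.47, SE 0.11). Both retained 54 to 90 reads in every 96 h library.

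Apart from the pair with the strongest progenitor signals, every closing peak held under 2 scaled RPKM in each 96 h library. At chr5:147395994-147397395 (closing 4), the widest of them, the 96 h libraries held 0.371, 0.507 and 0.449 scaled RPKM, against 28.9, 29.4 and 29.0 at 0 h. At chr1:39792803-39793506 (closing 10) the values were 1.34, 1.962 and 1.24 at 96 h against 39.8, 38.7 and 39.6 at 0 h. This peak had a neighbour 154 bp away, the closest of any named peak. The other 6 closing peaks lay at chr18:10918166-10918766, chr10:60983307-60983890, chr6:72227258-72228014, chr4:142951402-142952251, chr3:87345955-87346680 and chr1:107200646-107201339, with means of 0.425 to 1.10 scaled RPKM at 96 h and 21.96 to 35.3 at 0 h. All 12 kept their direction and call under the same 16 alternatives, which again follows largely from how they were chosen.

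**Figure D2:**
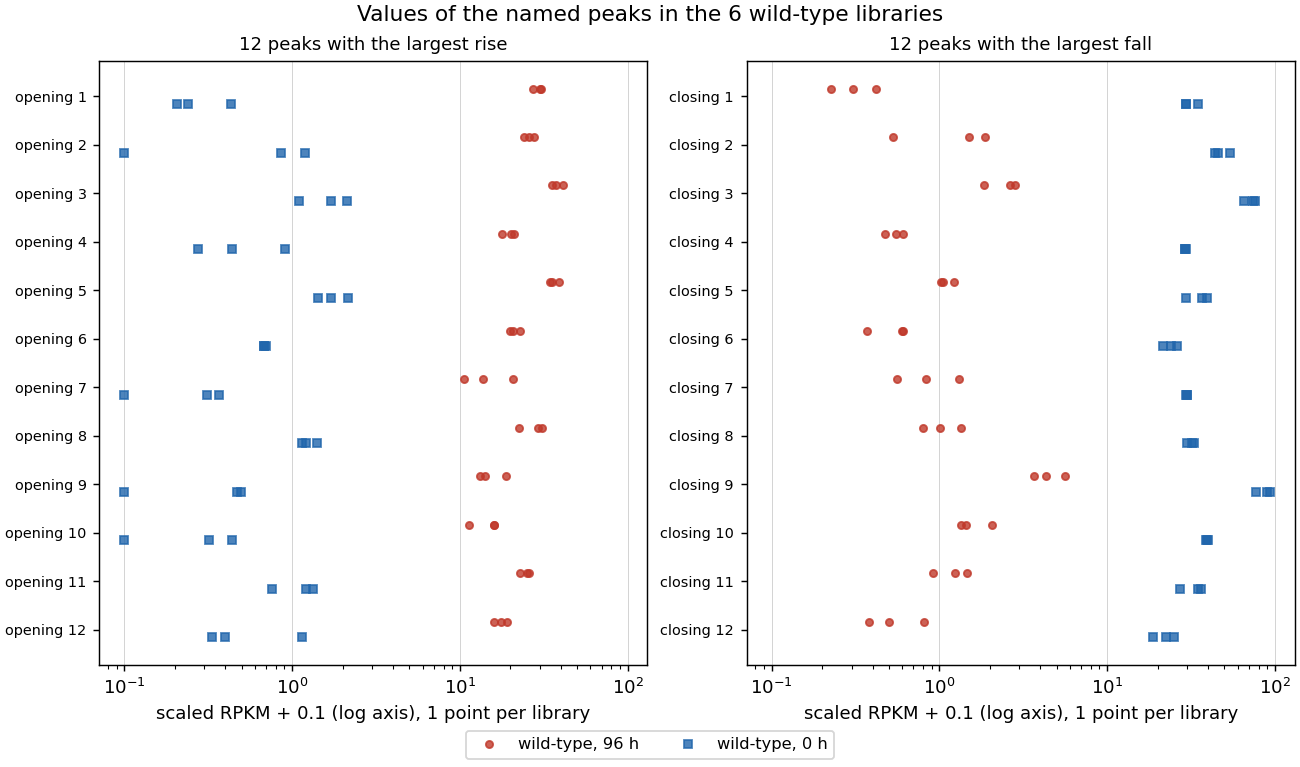
Scaled RPKM + 0.1 (log axis) of the 12 opening and 12 closing peaks, 1 point per wild-type library, with 96 h libraries as red circles and 0 h libraries as blue squares, numbered by the size of their change. The opening peaks held 10.4 to 40.9 scaled RPKM at 96 h, the closing peaks 18.6 to 93.1 at 0 h, and peaks whose times overlapped were not eligible.

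A number of peaks were at or under 3 reads in every library of one time. Such peaks could pass the filter on low values only through other libraries, wild-type at the other time or HMGN1-OE. Their calls therefore follow largely from the choice and are given as a description. At 0 h this held for 446 tested peaks, of which 415 were called higher at 96 h (33.2% of all tested peaks were), with a median of 2.85 and a highest value of 14.9 scaled RPKM at 96 h. Only 109 of these 415 exceeded at 96 h the median level of all tested peaks, 3.87 scaled RPKM. In the other direction, 482 peaks were at or under 3 reads in every 96 h library, and 413 of them were called lower (30.7% of all tested peaks were), with a median of 1.963 and a highest value of 9.80 scaled RPKM at 0 h. Regions that were nearly empty at one time were therefore mostly weak peaks at the other. Their median widths were 217 bp and 253 bp, and a limit in reads favours narrow peaks. At this depth an empty peak could still hold a low signal.

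Some of the strongest signals were not called. By rule, the 5 highest peaks that were not called and whose log2 fold change lay within 0.25 of 0 were examined as steady peaks. The peak at chr2:98506405-98507475 held 1421, 2504 and 2669 scaled RPKM at 96 h against 2456, 2851 and 2216 at 0 h (log2 fold change -0.24, 95% interval -0.72 to 0.25, adjusted p = 0.368). The peak at chr16:11143999-11144406 held 583, 814 and 960 at 96 h against 738, 779 and 593 at 0 h (log2 fold change 0.14, 95% interval -0.19 to 0.47). The groups overlapped at both. Replicate 1, with the largest share of reads in peaks (50.02%), was the lowest 96 h library at all 5 steady peaks. Replicate 3, with the smallest share at 96 h (35.1%), was the highest 96 h library at all 5. These peaks stood far above 67.8 scaled RPKM, where the top 1% of peaks by level began. Whether such extreme levels reflect accessibility alone was not tested.

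The 3 others were at chr17:36368206-36368548, chr1:197067700-197068064 and chr6:103599064-103599286, with means of 230 to 498 scaled RPKM at 96 h and 252 to 447 at 0 h. Without replicate 1 at 96 h, the steady peaks on chromosomes 16 and 17 were called higher (log2 fold changes 0.34 and 0.33). As deposited they were also called higher (0.41 and 0.40). That a peak was not called here does not show that its accessibility was equal at the 2 times.

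The direction of change went with the shape and strength of a peak. Peaks are given here by the mean level over the 6 wild-type libraries, and these counts are a description without a test of their own. Among strong peaks, those above 8.46 scaled RPKM, narrow ones (up to 500 bp, n = 2987) were called higher in 48.4% and lower in 24.4% of cases, with a median log2 fold change of 0.26. Wide strong peaks (over 800 bp, n = 5967) were called higher in 15.02% and lower in 60.9%, with a median of -0.32. Set against 33.2% higher and 30.7% lower among all tested peaks, strong narrow peaks leaned toward gain and strong wide peaks toward loss.

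Losses in strong, wide peaks were small and frequent. Only 5.98% of the strong wide peaks were at least 2-fold lower, although 60.9% were called lower. They also rested on the scaling: as deposited, 22.6% of them were called lower and 18.0% higher, and their median log2 fold change was -0.07, against 0.21 for all tested peaks. Strong narrow peaks leaned toward gain on both scales, with 53.2% higher and 13.6% lower as deposited and a median of 0.51. In HMGN1-OE cells, strong narrow peaks were called higher in 42.5% and lower in 25.1%, and strong wide peaks were called higher in 18.0% and lower in 32.2%, between 96 h and 0 h.

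Width alone gave the same order at its ends. Of peaks up to 300 bp wide, 37.9% were higher and 19.6% lower, with a median log2 fold change of 0.19. Of peaks over 800 and up to 1200 bp wide, 19.3% were higher and 52.9% lower, with a median of -0.29, whereas as deposited 22.1% were higher and 22.9% lower, with a median of -0.04. For peaks over 1200 bp the median was -0.18, and it was 0.07 as deposited, below the median of all tested peaks under both scalings. Among the top 1% of peaks by level (n = 576), 6.94% were higher and 77.8% lower at 96 h, with a median of -0.37. As deposited, 9.20% of them were higher and 20.8% lower, with a median of -0.11. In HMGN1-OE cells the same 576 peaks, after TMM scaling, were called higher in 24.8% and lower in 9.72%, and this difference between the genotypes was not tested for the class.

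**Figure D3:**
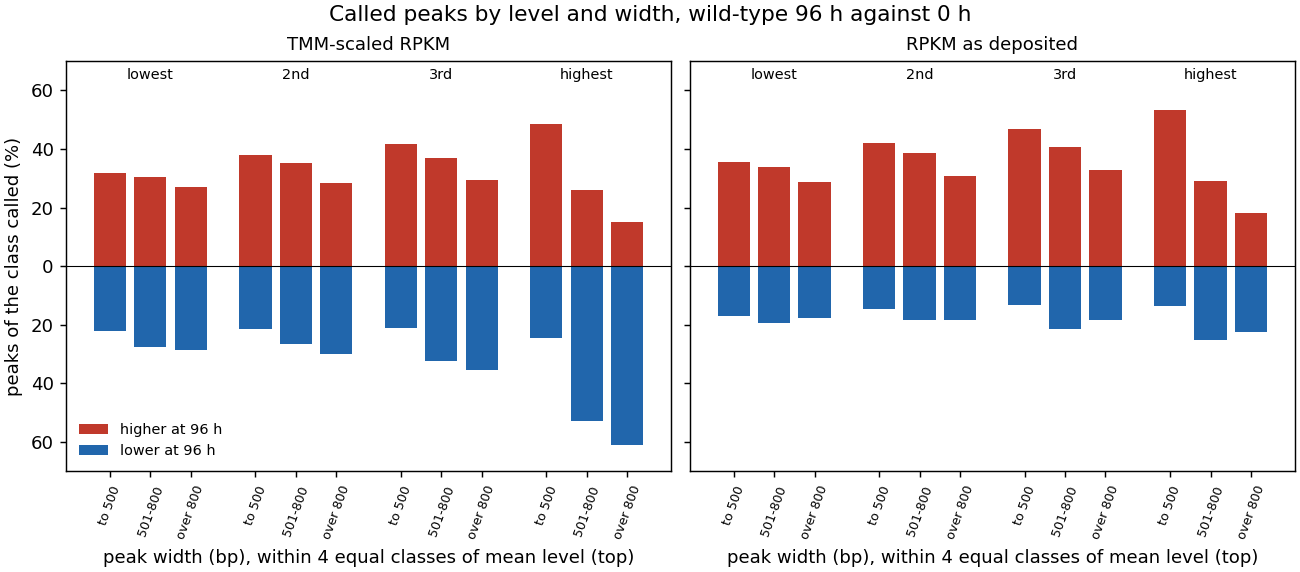
Share of tested peaks called higher (red, upward) or lower (blue, downward) at 96 h in wild-type cells, in percent of each class, by peak width within 4 equal classes of mean level, after TMM scaling (left) and on the RPKM as deposited (right). In the highest class, peaks up to 500 bp were higher in 48.4% and peaks over 800 bp were lower in 60.9% of cases after TMM scaling, and in 53.2% and 22.6% as deposited.

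Peaks far from any other peak opened often. Of 1199 tested peaks with no neighbour within 100 kb, 42.5% were higher and 22.5% lower, and 27.0% were at least 2-fold higher, against 18.4% of all tested peaks. Their median log2 fold change was 0.26 after TMM scaling and 0.45 as deposited. These peaks were weaker than most, with a median level of 2.39 scaled RPKM, and narrower, with a median of 363 bp. A similar class was peaks up to 500 bp wide at 2.18 to 3.87 scaled RPKM (n = 10320). Of that class 37.8% were higher and 25.9% at least 2-fold higher, the latter close to the share of isolated peaks. At lower levels these shares were 31.9% and 17.9% (n = 11600). Whether isolation mattered beyond level and width was not tested. In HMGN1-OE cells 52.1% of the isolated peaks were called higher and 13.1% lower, against 35.9% and 21.5% of the similar class.

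After TMM scaling no chromosome moved as a whole. The median log2 fold change of a chromosome's peaks ran from -0.11 on chromosome 5 to 0.09 on chromosome 19. As deposited it ran from 0.11 to 0.32 on the same chromosomes, against 0.21 for all tested peaks. The shares that follow are after TMM scaling. Among autosomes the share of peaks called higher was 29.5% to 36.5% and the share called lower 26.9% to 34.1%. On the X chromosome 30.2% were higher and 31.1% lower, and 7.16% were at least 2-fold lower, against 10.1% of all tested peaks.

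Some stretches of the genome opened or closed together. Windows of 200 kb with at least 5 tested peaks numbered 4640, and in 92 of them every peak had a positive log2 fold change with at least 50% of peaks called higher. In 94 windows the same held in the negative direction. These counts depended on the scaling, since they were 186 and 26 on the RPKM as deposited. By a looser rule, 1417 windows held at least 2 peaks of 2-fold change in a single direction and none in the other. Mixed windows, with at least 2 such peaks in each direction, numbered 625. Of the 4263 windows with any 2-fold peak, 2006 held both a higher and a lower one.

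A stretch with many opening peaks was on chromosome 16. All 11 peaks of the window chr16:36200001-36400000 were at least 2-fold higher, with log2 fold changes of 1.12 to 2.91 (median 2.38). Averaged over the 11, the libraries stood at 7.59, 6.11 and 5.12 scaled RPKM at 96 h against 0.522, 0.417 and 0.361 at 0 h. Each of these peaks was modest on its own, and the strongest at 96 h, chr16:36307842-36308078, reached 9.46 ± 2.14 against 1.30 ± 0.37 at 0 h (SD, n = 3 each). The window before it, chr16:36000001-36200000, had 5 of 7 peaks at least 2-fold higher (median 2.06), and its peak at chr16:36040909-36041678 was lower, with 24.3 ± 0.41 at 96 h against 35.0 ± 2.96 at 0 h.

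Read without window borders, this opening held the most peaks. Consecutive tested peaks that were all at least 2-fold higher were counted, a step chosen after the values had been seen. At chr16:36156614-36465868, 19 peaks in a row opened over 309 kb. Of the 19, 18 were also called higher in HMGN1-OE cells, as were 91.3% of all 2-fold higher peaks. The next by number of peaks were 12 peaks over 309 kb at chr7:26774081-27082958 (median log2 fold change 1.68), 11 peaks over 156 kb at chr13:55959731-56115755 (1.71), and 10 peaks each at chr5:138266234-138327446 (2.03) and chr8:68857949-69001193 (2.04). Runs of at least 5 numbered 107 among 2-fold higher peaks and 12 among 2-fold lower peaks. By span, a run of 7 higher peaks at chr17:18002055-19102604 was longer, at 1101 kb. The lower run with the most peaks held 7, over 459 kb at chr9:94639237-95097884 (median -1.39). Fewer peaks were 2-fold lower than 2-fold higher, 10.1% against 18.4%, so runs of fewer lower peaks say nothing by themselves about their grouping.

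Other windows opened around smaller sets of peaks. In chr13:9800001-10000000, 6 of 7 peaks were at least 2-fold higher (median 2.71), led by chr13:9877879-9878318 with 24.6 ± 4.43 scaled RPKM at 96 h against 1.79 ± 0.45 at 0 h. The exception in that window was a strong peak at chr13:9833552-9833806 that was not called, with 182 ± 44.3 at 96 h against 171 ± 26.9 at 0 h. In chr6:138000001-138200000 all 5 peaks were at least 2-fold higher (median 2.00), and the libraries averaged 11.9, 12.2 and 13.3 at 96 h against 1.83, 2.16 and 2.00 at 0 h. In chr16:76400001-76600000, 3 of 5 peaks were at least 2-fold higher (median 2.01) and 1 was at least 2-fold lower.

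Closing windows held a similar mixture. In chr17:27400001-27600000 all 10 peaks had a negative log2 fold change, 9 were called lower and 8 were at least 2-fold lower (median -1.52), and the libraries averaged 0.539, 0.901 and 0.812 scaled RPKM at 96 h against 4.98, 5.47 and 4.71 at 0 h. In chr11:114000001-114200000, 8 of 10 peaks were lower (median -1.84), led in level by chr11:114183625-114184516 with 4.58 ± 0.13 at 96 h against 27.0 ± 1.86 at 0 h. Peaks of opposite direction stood inside 2 of the 5 closing windows. In chr9:7200001-7400000, where 5 of 6 peaks were lower (median -1.58), the peak at chr9:7336804-7337373 was higher, with 10.4 ± 0.58 at 96 h against 1.92 ± 0.34 at 0 h. In chr4:44600001-44800000, 5 of 6 peaks were lower (median -1.64), and in chr6:55200001-55400000, 6 of 7 (median -1.50).

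**Figure D4:**
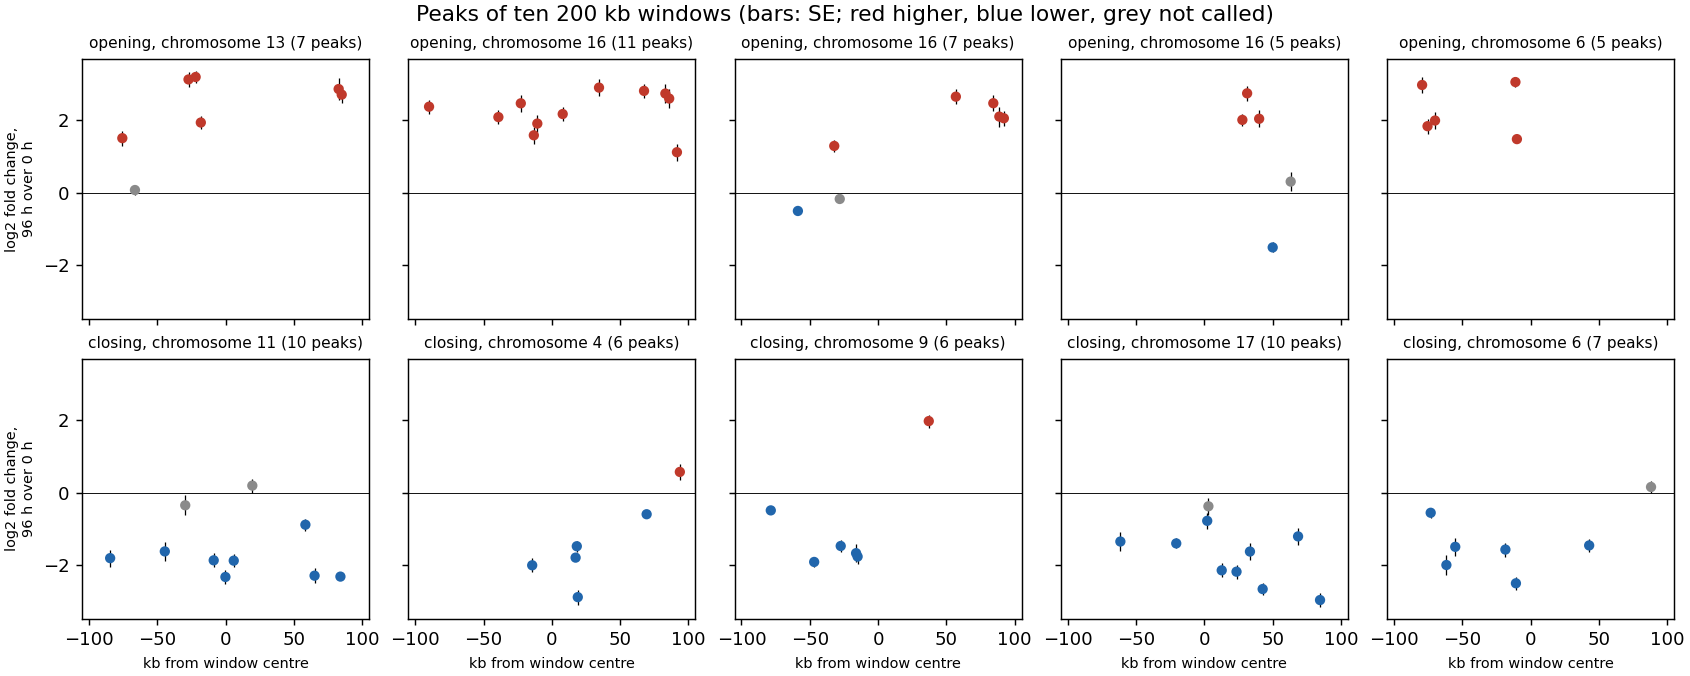
Log2 fold change (96 h over 0 h, wild-type cells, vertical axis) of each tested peak by its distance in kb from the centre of a 200 kb window, for the 5 windows with the highest (top row) and the 5 with the lowest (bottom row) median, with bars for the SE. Red points were called higher, blue points lower and grey points were not called, and in the chromosome 16 window with 11 peaks every peak was higher, by 1.12 to 2.91.

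Peaks close to each other moved the same way more often than distant neighbours. Of 351 adjacent pairs up to 1 kb apart in which both peaks changed at least 2-fold, 82.6% changed in the same direction. This share was 74.6% at 3 to 10 kb (1589 pairs) and 65.6% at 30 to 100 kb (876 pairs), against 54.2% that would follow if the directions of 2 peaks were unrelated. Beyond 100 kb it did not fall further, with 65.6% at 100 to 300 kb and 65.1% over 300 kb. The value for unrelated directions rests on the mix of directions over all tested peaks. Peaks with no neighbour within 100 kb had another mix, with 27.0% at least 2-fold higher and 9.17% at least 2-fold lower. It therefore cannot show whether distant neighbours agreed beyond their own mix. For all called pairs the share was 66.7% up to 1 kb (1478 pairs), 58.3% at 30 to 100 kb and 60.4% over 300 kb, against 50.1% for unrelated directions. Adjacent peaks share libraries and local sequence, and reads near a border may count toward either, so these shares are a description.

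Peaks of opposite direction nevertheless lay next to each other at 61 of those 351 close pairs. In all 61, neither peak had overlapping groups, as was true of 66.8% of all tested peaks, and both kept their calls on the RPKM as deposited, which follows largely from the choice of 2-fold changes. In 44 of the 61, both peaks were called in the same directions in HMGN1-OE cells, where single 2-fold higher and 2-fold lower peaks were called in the same direction in 91.3% and 90.3% of cases. The HMGN1-OE libraries entered the choice of pairs through the filter, the scaling and the shared estimate of the spread, while the fold changes compared wild-type libraries only. At chr6:85778749-85779198 the 96 h libraries held 20.9, 19.7 and 17.5 scaled RPKM against 2.19, 1.41 and 1.57 at 0 h, and 472 bp further on, chr6:85779671-85780274 held 2.26, 2.35 and 2.81 at 96 h against 14.0, 16.2 and 13.2 at 0 h. Their log2 fold changes were 2.91 (SE 0.16) and -2.15 (SE 0.14).

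Further pairs showed the same exchange. At chr11:50052004-50053154 accessibility was 36.1 ± 1.39 scaled RPKM at 96 h against 3.49 ± 0.26 at 0 h, and 567 bp away at chr11:50053722-50054087 it was 2.62 ± 0.34 at 96 h against 10.7 ± 2.37 at 0 h (SD, n = 3 each). At chr19:4112112-4112519 it was 7.80 ± 0.13 at 96 h against 1.24 ± 0.10 at 0 h, with 5.44 ± 0.47 at 96 h against 22.9 ± 1.25 at 0 h at chr19:4113075-4114228. These examples came from the 4 pairs with the largest opposed changes and were chosen after their values had been seen.

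In terms of reads, the 10598 peaks that were at least 2-fold higher held 12.1%, 11.1% and 10.7% of all reads in peaks at 96 h against 2.62%, 2.60% and 2.87% at 0 h. The 5835 peaks that were at least 2-fold lower held 2.96%, 2.94% and 2.94% at 96 h against 9.07%, 9.02% and 9.09% at 0 h. These shares follow from how the peaks were chosen and are given without a test. The HMGN1-OE libraries entered the choice of peaks through the filter, the scaling and the shared estimate of the spread. The fold changes themselves compared wild-type libraries only. In HMGN1-OE libraries the first set held 8.82% ± 0.22 at 96 h and 2.62% ± 0.16 at 0 h (SD, n = 3 each), and the groups did not overlap (two-sided exact permutation p = 0.1, the smallest possible, adjusted over 3 tests 0.15). The second set held 3.85% ± 0.02 at 96 h and 10.3% ± 0.09 at 0 h (exact permutation p = 0.1, adjusted 0.15).

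**Figure D5:**
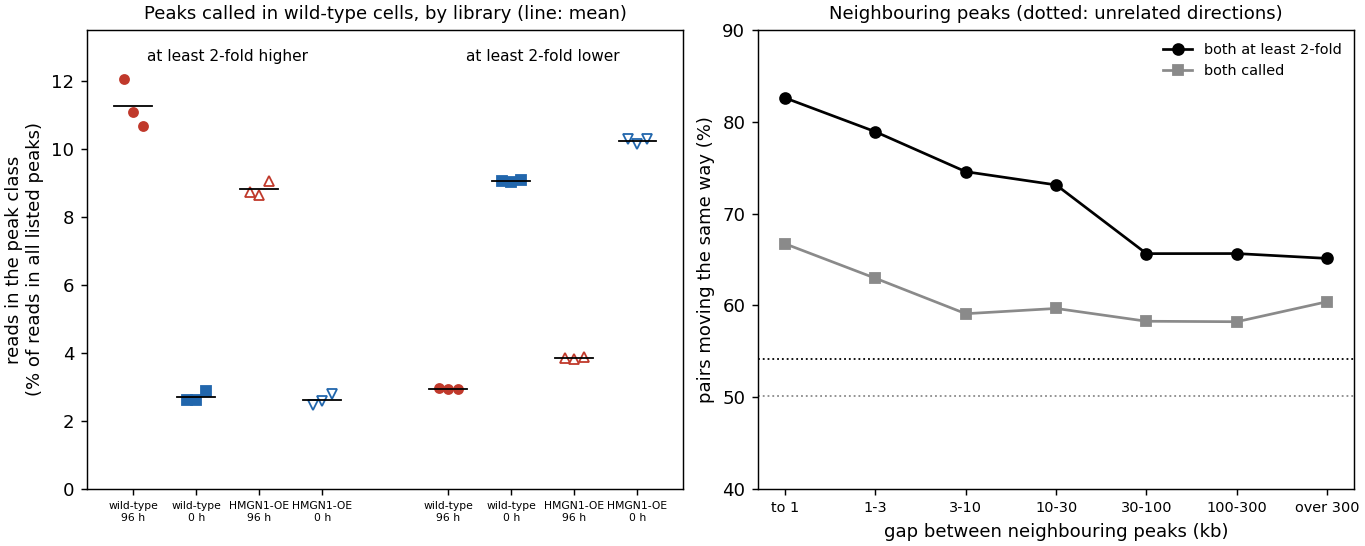
Left, reads in the peaks at least 2-fold higher or lower in wild-type cells, in percent of reads in all listed peaks, 1 point per library with a line for the mean (filled, wild-type, open, HMGN1-OE, red, 96 h, blue, 0 h). Right, percent of adjacent peak pairs that moved the same way, by the gap between them in kb, with dotted lines for unrelated directions, falling to 65.6% at 30 to 100 kb, against 82.6% up to 1 kb, where both peaks changed at least 2-fold.

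Of all peaks called in wild-type cells, 77.9% of the higher and 65.1% of the lower ones were called in the same direction in HMGN1-OE cells. Among those of less than 2-fold change these shares were 61.2% and 52.6%, and larger changes were shared more often. Of the 10598 peaks at least 2-fold higher, 9674 (91.3%) were called higher in HMGN1-OE cells between 96 h and 0 h, where 32% of all tested peaks were called higher, and 10 were called lower. Those 9674 made up 52.4% of the higher calls in HMGN1-OE cells. Of the 5835 peaks at least 2-fold lower, 5268 (90.3%) were called lower in HMGN1-OE cells, where 27% of all tested peaks were, and 15 were called higher. The 5268 were 33.9% of the lower calls there. On the RPKM as deposited, the shares called in the same direction were 72.2% and 97.1%.

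A difference in size between the genotypes was tested by the interaction, the change in HMGN1-OE cells minus that in wild-type cells. It was called at 9827 peaks (17.1%), 6317 above and 3510 below 0. The direction depended on the scaling, with 491 above and 26459 below as deposited and 4013 above and 5972 below when libraries were scaled to the reads in peaks. Among the 2-fold higher peaks the change was smaller in HMGN1-OE cells at 1369 and larger at 552 (as deposited 5303 and 52), and among the 2-fold lower peaks it was smaller at 1159 and larger at 167 (as deposited 144 and 1385). Since the peaks were chosen for a large wild-type change, which enters the interaction, an excess of smaller changes in HMGN1-OE cells is not independent of that choice. All 24 opening and closing peaks were called in the same direction in HMGN1-OE cells.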

How the data were processed

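Nuclei of each library were processed by Omni-ATAC and sequenced on a NextSeq500. The authors used ChiLin 2.0.0, BWA and MACS, and DESeq2 for differential peaks, and the submitters' processing notes name mm9. The deposited values were RPKM per peak, computed by the authors. The sources used here give neither the merging of peaks, the threshold and the handling of duplicates nor any shift of read ends.

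RPKM times width gave whole reads for 100% of values (tolerance 0.001), from which library totals were recovered. Wilson 95% intervals for the share of reads in peaks were within ± 0.02 points per library (counting error only). Peaks were kept with the equivalent of 10 reads in at least 3 libraries and 15 reads in all. TMM factors (30% and 5% trimmed), 0.957 to 1.47 at 96 h and 0.869 to 1.06 at 0 h, scaled the values. TMM rests on a majority of unchanged peaks, while 64% were called. limma 3.58.1 (R 4.3.3, trend, robust) was fitted to log2(scaled RPKM + 1) for all 12 libraries with 4 group means, which understates the change of low peaks. Single values per library were compared by two-sided exact permutation tests (Python 3.11.15, numpy 2.4.6). The fit was tested on simulated reads in which few peaks changed, as many raised as lowered. That test does not bear on scaling when most peaks change.

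Named peaks were called, had non-overlapping times and a mean above the median level. The 12 largest changes each way were taken, at most 1 per 200 kb, with 5 steady peaks (within 0.25 of 0) and 5 windows each way with at least 5 peaks. The members and lists were chosen with earlier results of these data known. Alternatives were other scalings (as deposited, median-ratio, reads in peaks), pseudocounts of 0.5 and 0.1, no filter or 30 reads, wild-type libraries only, a replicate block, limma-voom and leaving out each library. A list of cell type marker genes could not be used, since peaks were not paired with genes. Positions are 1-based.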

Additional observations from a re-analysis of the deposited data

Results flagged for a closer look

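After TMM scaling, the change between 96 h and 0 h differed between HMGN1-OE and wild-type cells at 18 of the 29 named peaks. This was by the interaction test (limma, adjusted p under 0.05 over all tested peaks), which called 17.1% of all tested peaks. The values are log2 differences, the change in HMGN1-OE cells minus that in wild-type cells. The opening and closing peaks were chosen for a large wild-type change, so a smaller change in HMGN1-OE cells is not independent of that choice.

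Of the 8 opening peaks, 7 gained less in HMGN1-OE cells. The difference was -1.60 at chr19:29535631-29536141 and -1.66 at chr3:84479465-84479918, where HMGN1-OE cells reached 9.85 ± 0.26 and 4.14 ± 0.99 scaled RPKM at 96 h, against 29.2 ± 1.72 and 17.6 ± 1.57 in wild-type cells (SD, n = 3 each). It was -1.43 at chr19:3907956-3908167, -1.32 at chr5:150475228-150475548, -1.09 at chr8:3665646-3665806, -1.04 at chr8:122639996-122640229 and -0.96 at chr18:57899869-57900143. These 7 were called under all 4 scalings, but 5 of them lost the call when the added constant was 0.1 (limma adjusted p 0.192 to 0.768) and under limma-voom (0.127 to 0.943), the exceptions being chr19:29535631-29536141 and chr19:3907956-3908167. The peak at chr18:57899869-57900143 was also lost with a constant of 0.5 and without single wild-type libraries, and its difference was -0.18 under limma-voom. The exception was the isolated peak at chr13:88599157-88599644, with 0.61, which was called under the TMM scaling only and was -0.07 as deposited.

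All 8 closing peaks lost less in HMGN1-OE cells under the TMM scaling. The difference was 1.84 at chr3:87345955-87346680, where 4.38 ± 0.25 scaled RPKM remained at 96 h in HMGN1-OE cells, against 1.10 ± 0.27 in wild-type cells, and this was the only one of the 8 called under all 4 scalings. It was 1.21 at chr18:10918166-10918766, 1.12 at chr7:79105512-79106140, 1.07 at chr1:107200646-107201339 and 0.90 at chr5:118944710-118945675. It was 0.81 at chr7:90865629-90866321, 0.69 at chr10:60983307-60983890 and 0.68 at chr1:39792803-39793506, the last being -0.07 as deposited.

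Of the steady peaks, the difference was 1.45 at chr2:98506405-98507475, called under all 4 scalings but only 0.53 as deposited, with 3415 ± 313 scaled RPKM at 96 h and 1484 ± 235 at 0 h in HMGN1-OE cells. It was 1.24 at chr6:103599064-103599286, called under 2 of the 4 and 0.32 as deposited. The share of reads in peaks was 24.7% to 29.5% in the HMGN1-OE libraries at 96 h and 40.2% to 43.9% at 0 h. Whether the differences at these steady peaks follow from that share was not tested. Of the 18 peaks, the 4 called under every alternative fitted for the interaction were chr19:29535631-29536141, chr19:3907956-3908167, chr3:87345955-87346680 and chr2:98506405-98507475.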

How the results depend on the processing

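On the RPKM as deposited, 10229 peaks were lower, 67.6% of calls were higher, 186 windows opened and 26 closed together, 1348 strong wide peaks were lower (3633 after TMM scaling) and 26950 peaks had an interaction. Scaled to reads in peaks, 58 windows closed together, and limma-voom called 8816 peaks at least 2-fold lower (8622 when the added constant was 0.1 in place of 1). The shift of all peaks between scalings, 0.21 as deposited, moves these balances by construction. Leaving out each wild-type library gave 17895 to 18435 higher peaks, 16238 to 16986 lower peaks, 7174 to 10296 interaction peaks and a difference in the share of reads in peaks of -0.265 to 7.21 points. All other summary counts stayed within 1.5 times. Equal replicate numbers did not pair the libraries (correlation of deviations between times -0.02, 0.005 and -0.04), and with a replicate block 19546 peaks were higher and 16455 lower. Medians of the 10 named windows kept their sign throughout, and 7 of them moved beyond a fixed limit under at least 1 setting. That limit was not taken from the spread between replicates. The size of change at nearly empty peaks depended on the constant added, and the peak at chr14:107479762-107480017 ranged from 3.497 to 6.21 on the log2 scale.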
